A study of Mus musculus with 3 samples.

Results

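The Otx-expressing epithelium of the otic vesicle was examined in single-cell RNA sequencing libraries from E10.5 mouse embryos. The otic vesicle is the epithelial sac that gives rise to the inner ear. A cell was counted as an Otx cell when it had at least 1000 detected genes, at most 10% mitochondrial UMIs (unique molecular identifiers, each standing for 1 captured transcript), at least 1 UMI of the epithelial adhesion gene Epcam, at least 2 UMIs in sum of the otic genes Fbxo2, Hmx2, Hmx3 and Pax2, at most 1 UMI in sum of the mesenchyme genes Prrx1 and Twist1, and UMIs of at least 3 of the 5 markers Otx1, Otx2, Gsc, Capn6 and Six2. This rule chose 1321 cells out of 8518 otic cells that met every clause but the marker one, and out of 26130 barcodes that passed the gene and mitochondrial limits. The remaining 7197 otic cells are called other otic cells below.

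The otic vesicles of 1 library were heterozygous for the Sox9 allele Y440X (genotype Sox9Y440X/+, group CD in the labels), and 2 libraries were wild type (WT). Per the labels' protocols, vesicles were pooled before they were dissociated, so each library is a pool of embryos and stands for 1 replicate. The labels name no Cre driver and no other allele or treatment in either group. The counts do not separate the Y440X transcript from the wild-type one, so the Sox9 level does not check the genotype label. The labels do not say whether the WT libraries came from separate litters. The p-values rest on the spread between these libraries alone, with the spread of each gene shrunk toward that of other genes. The libraries held 186439890 UMIs (CD), 157373393 (WT replicate 1) and 202584468 (WT replicate 2) over all deposited barcodes. No barcode was shared between the Otx cells of any pair of libraries.

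Otx1 and Otx2 are homeodomain transcription factors of the orthodenticle family. In the vesicle they are expressed in ventral and posterolateral epithelium, and Otx1 is needed for the lateral semicircular canal. Sox9 and Sox10 are related SOX factors that otic epithelium expresses together. Gsc is a homeodomain factor of the same paired-like class as Otx2, Capn6 is a calpain without protease activity and Six2 is a homeodomain factor of the sine oculis family.

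The promoters of 3 genes that the results turn on are printed here, as the 250 bases before the RefSeq start site (build GRCm38.p6, minus strand for Otx2 and Cnmd, plus strand for Nrp2). Otx2 is the marker that differed most between CD and WT, Cnmd is the gene whose fall passed in every alternative fitted, and Nrp2 is a gene that rose in Otx cells and in other otic cells. Capitals mark the SOX core ACAAT in Otx2 and the LEF/TCF core CTTTGA in Nrp2, searched on both strands.
Otx2 (chr14:48667645-48667894): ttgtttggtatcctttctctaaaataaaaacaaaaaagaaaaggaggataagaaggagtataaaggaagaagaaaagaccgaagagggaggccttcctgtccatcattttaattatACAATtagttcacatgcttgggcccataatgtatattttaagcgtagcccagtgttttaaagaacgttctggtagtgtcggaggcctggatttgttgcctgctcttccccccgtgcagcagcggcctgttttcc
Cnmd (chr14:79662184-79662433): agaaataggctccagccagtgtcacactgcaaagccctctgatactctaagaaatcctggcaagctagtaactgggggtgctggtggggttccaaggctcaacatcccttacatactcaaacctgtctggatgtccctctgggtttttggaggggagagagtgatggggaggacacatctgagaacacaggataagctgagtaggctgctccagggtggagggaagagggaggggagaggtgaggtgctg
Nrp2 (chr1:62703067-62703316): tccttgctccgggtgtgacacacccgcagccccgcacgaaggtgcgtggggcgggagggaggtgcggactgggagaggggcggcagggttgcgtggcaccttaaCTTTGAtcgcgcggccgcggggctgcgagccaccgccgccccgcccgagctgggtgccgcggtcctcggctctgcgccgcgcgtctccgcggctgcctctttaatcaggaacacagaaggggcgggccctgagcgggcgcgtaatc

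The promoter table held 15 of 24 genes looked for (the 5 markers and 19 genes that head the CD comparison), with 23 start sites. The SOX core (ACAAT or ATTGT) lay in 5 of the 23 windows, and it lies in 27.7% of all 32851 windows of the table. The LEF/TCF core (CTTTGA or TCAAAG) lay in 2 of the 23 windows, against 13.8% of all windows. The OTX core (TAATCC or GGATTA) lay in 1 window, at the third of 4 listed Otx2 starts, against 6.25% of all windows. A longer SOX core (AACAAT or ATTGTT) was searched first, with the OTX core, and lay in 0 of the 23 windows, against 9.42% of all windows. The shorter SOX core and the LEF/TCF core were chosen after that result was seen, and the promoters printed here were chosen with the matches known. These are matches of letters in the windows and not binding sites.

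All 5 markers were detected in the Otx cells of each library, with levels that follow from the rule and are given as a description. Levels here are CPM, the UMIs of the gene scaled to 1000000 UMIs of the cell group, and compare cell groups and libraries for 1 gene. Otx1 was at 174 CPM in Otx cells of the CD library, 119 in WT replicate 1 and 114 in WT replicate 2, against 8.27, 7.40 and 8.31 CPM in other otic cells. Otx2 was at 112, 149 and 206 CPM in the same order, against 0.191, 1.20 and 1.17 in other otic cells. Both Otx genes were therefore over 10 times higher in Otx cells of each library, while CD was the highest library for Otx1 and the lowest for Otx2. Gsc was at 62.3, 62.0 and 82.4 CPM against 0.172, 0.532 and 1.47. Capn6 was at 324, 210 and 269 CPM against 31.6, 20.7 and 27.7. Six2 was at 108, 105 and 115 CPM against 14.6, 10.3 and 14.5. Capn6 and Six2 were present at a low level in other otic cells too, and Six2 was at about the same level in cells passing a mesenchyme gate (17.4, 16.1 and 18.7 CPM).

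**Figure D1:**
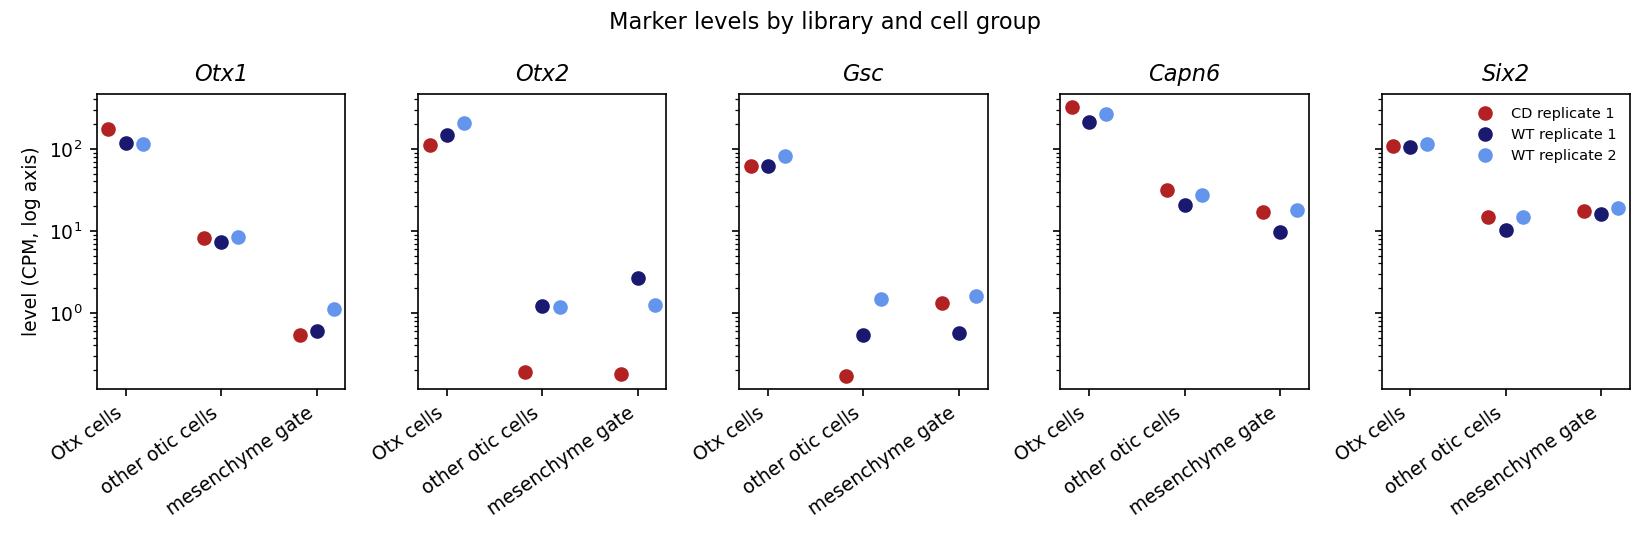
Level of each marker in CPM (log axis) in Otx cells, other otic cells and cells of the mesenchyme gate, 1 point per library. Otx2 and Gsc are at or below 2.67 CPM outside the Otx cells in each library, while Capn6 and Six2 stay at 9.69 CPM or above in each group.

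The label was checked on genes the rule did not use. Tbx1, a T-box factor of lateral otic epithelium, was detected in 96.7% of Otx cells in CD, 95.5% in WT replicate 1 and 91.3% in WT replicate 2, at 242, 208 and 183 CPM. In other otic cells Tbx1 was at 99.8, 106 and 116 CPM, and in cells of the mesenchyme gate at 30.6, 36.7 and 17.9 CPM. Sox10, a marker of otic epithelium, had UMIs in 86.1%, 94.1% and 90.8% of Otx cells, and in 65.0%, 83.9% and 78.1% of other otic cells. In cells of the mesenchyme gate the shares were 4.05%, 5.70% and 8.43%. That gate asked for at least 5 UMIs of Prrx1 and Twist1 in sum and no Epcam UMI, so the gates favour this gap. Sox10 is also on the list of neural crest and glia markers used below. Pax8, an early otic gene, was low in Otx cells (3.28, 2.26 and 0.787 CPM) and in other otic cells (10.3, 7.40 and 5.89 CPM). The dorsal genes Wnt6, Msx2 and Gbx2 were lower in Otx cells than in other otic cells of each library. They were picked among the lowest ratios of that contrast, so they are no check of the label. A sub-cluster of 257 Otx cells, described below, was itself led by Wnt6. Bmp4, also on the list of posterolateral domain genes used below, went the other way, with library sizes adjusted as in the fits below. It was at 53.7, 17.1 and 22.1 CPM in Otx cells, against 67.6, 41.8 and 47.8 in other otic cells. Hmx3, on that list and in the gate, was lower too, at 46.9, 38.2 and 36.4 CPM against 62.3, 61.3 and 71.8. Tbx1 thus matches the lateral part of the name as a single gene of a list whose members differ. The epithelial part rests on Epcam in the rule. Position in the vesicle was not measured.

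Otx cells made up 13.1% of otic cells in CD (338 of 2579, 95% exact binomial interval 11.8% to 14.5%), 18.1% in WT replicate 1 (441 of 2430, 16.6% to 19.7%) and 15.4% in WT replicate 2 (542 of 3509, 14.3% to 16.7%). The intervals cover counting error only, and with 1 CD library there is no test. The CD share was below both WT shares, and its interval overlapped that of WT replicate 2. Depth touches this share, since a deeper cell is more likely to show a marker: Otx cells had medians of 28311, 32900 and 24846 UMIs, and other otic cells 21080, 23432 and 16972. After each otic cell was thinned to 5000 UMIs the shares were 5.68%, 7.26% and 7.49%, and 44, 20 and 104 shallower cells were left out. With at least 2 markers in place of 3 the shares were 24.6%, 27.0% and 24.2%, so that CD then lay between the WT libraries, but thinned to 5000 UMIs they were 11.01%, 13.2% and 13.3%, with CD below both. With at least 4 markers they were 8.996%, 14.4% and 12.1%.

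The levels of cells just inside and just outside the marker limit are given as a description, since the marker count that separates them fixes the direction. Cells with exactly 3 markers had 123 CPM of Otx1 in CD, 99.8 in WT replicate 1 and 89.4 in WT replicate 2, against 38.5, 33.9 and 37.8 CPM in cells with 2 markers. Otx2 was at 6.71, 35.2 and 43.6 CPM with 3 markers, against 0.706, 5.51 and 5.15 with 2. Hmx2, a dorsolateral otic gene of the gate, went the other way as markers were added: it was at 135, 84.4 and 80.4 CPM with 3 markers and 27.2, 29.7 and 32.1 CPM with all 5.

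The markers were found in different combinations in CD and WT. Otx2 had no UMI in 44.4% of Otx cells in CD (39.0% to 49.9%), 22.7% in WT replicate 1 (18.8% to 26.9%) and 22.7% in WT replicate 2 (19.2% to 26.5%), and the median depth of Otx cells in CD lay between those of the WT libraries. The combination of Otx1, Capn6 and Six2 without Otx2 and Gsc made up 20.7% of Otx cells in CD, 8.39% in WT replicate 1 and 7.38% in WT replicate 2. Cells with all 5 markers made up 40.5%, 51.2% and 48.0%. Otx1 was found in 97.6% of CD Otx cells, 92.5% in WT replicate 1 and 89.5% in WT replicate 2. The CD library held more Otx cells without Otx2, and its Otx cells were those most often positive for Otx1. These shares are given as a description, since the rule that chose the cells uses the same markers. A cell without Otx2 can be an Otx cell only through the other markers, Otx1 among them. Fewer cells with Otx2 therefore favour a higher Otx1 share and more of the combination of Otx1, Capn6 and Six2. In cells chosen by this rule the Otx1 share thus cannot be told apart from the Otx2 difference. Otx1 was also measured in otic cells with all 4 other markers, Otx2 included. It was found in 99.3% in CD, 94.6% in WT replicate 1 and 90.6% in WT replicate 2. After thinning these shares were 58.0% (49.3% to 66.3%), 45.6% (39.2% to 52.2%) and 42.5% (36.7% to 48.5%). The thinned intervals of CD and WT replicate 1 overlapped, and the difference in share was not tested.

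Membership rests in part on the marker itself, so each marker was also measured in otic cells chosen by the other 4 (at least 2 of them detected). For Otx2 this chose 629 cells in CD, 634 in WT replicate 1 and 826 in WT replicate 2. Of these, 325, 411 and 507 had at least 3 of the other markers, a smaller part in CD. How far this mix bears on the Otx2 level was not tested. Otx2 fell in CD in these cells. It was at 62.2 CPM in CD, 109 in WT replicate 1 and 145 in WT replicate 2, on the scale of the fit, where library sizes are adjusted by TMM factors. The WT mean was 127 ± 25.9 CPM (SD, n = 2), and the CD value lay below both WT libraries by more than their gap. The log2 fold change was -1.03 (SE 0.18, adjusted p = 0.00735, edgeR), and 73 of 14896 genes passed in that fit, 0.490%. The adjusted p rose to 0.269 when at least 3 of the other markers were required (log2 fold change -0.71) and to 0.125 when called doublets were left out (-1.03). DESeq2 gave -1.04 with an adjusted p of 0.000749.

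The other markers did not pass in the same kind of fit. Gsc had a log2 fold change of -0.59 (SE 0.19, adjusted p = 0.392), with 34.3 CPM in CD, 44.5 in WT replicate 1 and 58.7 in WT replicate 2. Otx1 had 0.30 (SE 0.15, adjusted p = 0.918), with 115, 96.0 and 89.7 CPM. Capn6 had 0.40 (SE 0.16, adjusted p = 0.777), with 300.4, 199 and 256 CPM. Six2 had -0.19 (SE 0.16, adjusted p = 0.995), with 83.1, 89.7 and 100.2 CPM. Genes past the threshold made up 0.545%, 0.398%, 0.244% and 0.172% of those tested in the fits for Otx1, Gsc, Capn6 and Six2. Otx1 and Capn6 lay above both WT libraries in CD, and Gsc and Six2 below both. With at least 3 of the other markers, none of the 4 passed in edgeR. Otx1 was then at 0.65 (adjusted p = 0.0940), Capn6 at 0.52 (0.591), Gsc at -0.27 (0.971) and Six2 at 0.015 (0.996). In Otx cells with all 5 markers, which are chosen by Otx1 itself too, Otx1 was at 0.64 (adjusted p = 0.0377, edgeR).

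The share of cells with an Otx2 UMI was lower in CD than in either WT library. Among cells with at least 2 of the other markers, 29.9% had an Otx2 UMI in CD, 53.8% in WT replicate 1 and 50.7% in WT replicate 2. Thinned to 5000 UMIs, the shares were 17.2% (14.3% to 20.3%), 30.3% (26.8% to 34.1%) and 34.6% (31.4% to 38.0%). In cells of the mesenchyme gate, which should lack Otx2, 0.316%, 1.16% and 2.23% had a UMI at medians of 19604.5, 20835 and 17529 UMIs. Within the cells with an Otx2 UMI the level was 190 CPM in CD, 189 in WT replicate 1 and 259 in WT replicate 2, values that the choice of cells with a UMI holds up and that do not separate a lower share from a lower level per cell. In cells with all 4 other markers, the shares were 70.6%, 85.6% and 87.0%. After thinning they were 44.3% (37.2% to 51.6%), 49.6% (43.4% to 55.8%) and 59.2% (53.4% to 64.8%). The thinned intervals of CD and WT replicate 1 overlapped there.

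**Figure D2:**
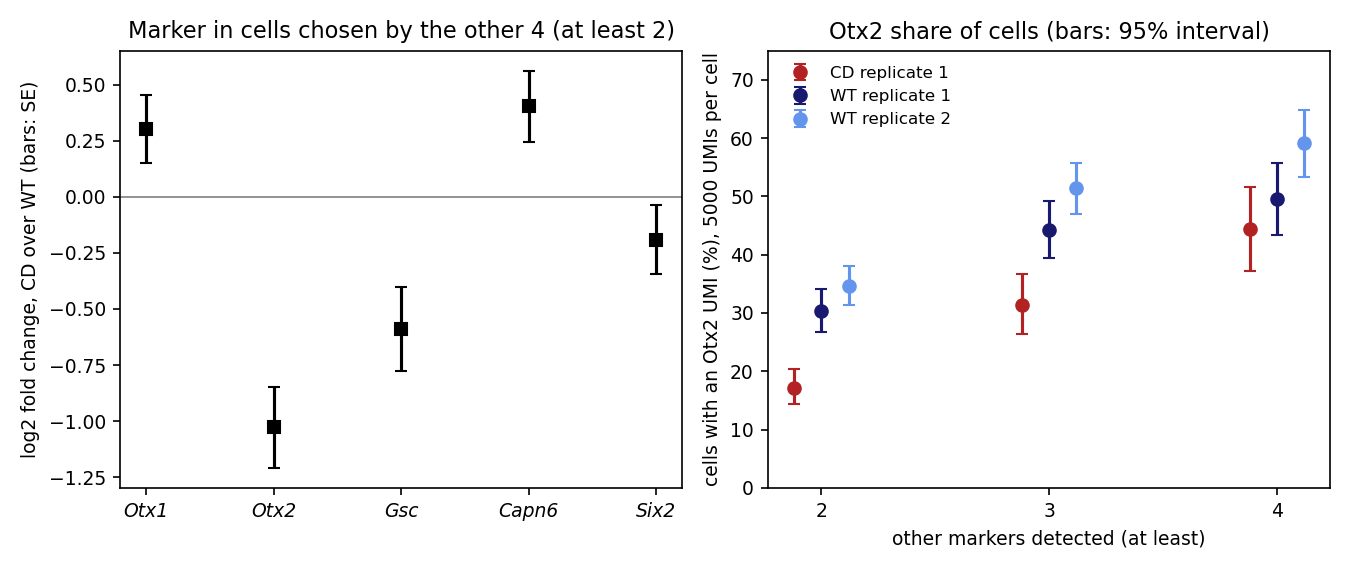
Left, log2 fold change of each marker, CD over WT, with its SE, in otic cells with at least 2 of the other 4 markers. Right, share of cells with an Otx2 UMI at 5000 UMIs per cell, by the least number of other markers detected, with 95% exact binomial intervals and 1 point per library. Otx2 is the lowest value on the left at -1.03, and CD is the lowest library at each step on the right.

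Outside the markers, Otx cells differed from other otic cells in ways that are given as a description, since the cells were chosen within the same contrast. Of 4722 genes with at least 30 CPM in the higher group of each library, 37 were at least 2-fold higher in Otx cells in all 3 libraries and 31 were at least 2-fold lower. Cyp26a1, an enzyme that breaks down retinoic acid, was at 97.7, 72.2 and 69.4 CPM in Otx cells of CD, WT replicate 1 and WT replicate 2, against 6.84, 7.74 and 8.17 in other otic cells. Rdh10, an enzyme that makes the precursor of retinoic acid, was at 14.8, 19.8 and 23.5 CPM against 64.9, 67.7 and 94.2. A degrading enzyme was thus higher in Otx cells and a producing enzyme lower, in each library. Krt19, a keratin, was at 107, 119 and 143 CPM against 16.0, 22.9 and 33.4. Frem2, a basement membrane protein of the Fraser complex, was at 157, 102 and 134 CPM against 40.5, 28.9 and 26.8. Ehbp1, Cnmd, Rab15, Mecom, Fam110b, Crym, Nnat and Sulf1 were also among the 12 highest ratios.

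The genes lower in Otx cells included known dorsal otic genes. Wnt6, a Wnt ligand, was at 9.74, 10.4 and 8.73 CPM in Otx cells against 74.7, 65.2 and 55.7 in other otic cells. Msx2, a homeodomain factor that BMP signalling induces, was at 7.37, 5.85 and 7.09 CPM against 59.9, 38.7 and 39.1. Gbx2, a homeodomain factor needed for the endolymphatic duct, was at 9.65, 9.33 and 3.74 CPM against 56.6, 45.1 and 32.2. Nrp2, a semaphorin receptor, was at 26.1, 10.55 and 12.2 CPM against 141, 63.6 and 72.9. Gfra1, Slc30a4 and Snx7 were the other genes with the lowest ratios. The 12 higher and 8 lower genes kept their direction when at least 4 markers were required.

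Otx cells fell into 8 sub-clusters, described by their leading genes. Sub-cluster 1 (306 cells) was led by the mitosis genes Ube2c, Nusap1, Cdc20 and Plk1. Sub-cluster 2 (273 cells) was led by histone genes and the DNA replication and repair genes Brca1, Clspn and Ccne2. Sub-cluster 3 (262 cells) was led by Igfbp5, which binds insulin-like growth factors, and by Rorb, Lhx1 and Spp1. Sub-cluster 4 (257 cells) was led by Wnt6, Dlx5, Nrp2, Rdh10 and Hmx2, which include the dorsal otic genes named above. Sub-cluster 5 (132 cells) was led by the Wnt ligand Wnt4, the Notch-ligand relative Dlk1 and the tight junction gene Cldn10. Sub-clusters 6, 7 and 8 held 66, 15 and 10 cells and were led by markers of neurons (Nefm, Stmn2, Neurod1), red blood cells (Alas2, Slc4a1) and endothelium (Kdr, Cldn5). Doublet calls covered 18.8%, 21.4% and 25% of the cells of sub-cluster 6 in CD, WT replicate 1 and WT replicate 2, between 25% and 100% in sub-cluster 7, between 75% and 100% in sub-cluster 8, and between 0 and 7.14% in sub-clusters 1 to 5. The 91 cells of sub-clusters 6 to 8 (24 in CD, 21 in WT replicate 1 and 46 in WT replicate 2) met the rule and stayed in the main comparison, and counts of genes past the threshold are also given without them.

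Among sub-clusters 1 to 5, Otx2 was highest in sub-cluster 5 of both WT libraries and in sub-cluster 2 of CD, and lowest in sub-clusters 3 and 4 of each library. In sub-cluster 5 it was at 107 CPM in CD, 304 in WT replicate 1 and 320 in WT replicate 2. In sub-cluster 4 it was at 57.7, 78.9 and 128 CPM, and in sub-cluster 3 at 63.6, 67.7 and 139 CPM. CD was the lowest library in each of sub-clusters 1 to 5, with the widest gap in sub-cluster 5. That sub-cluster made up 6.21% of Otx cells in CD (21 cells), 8.16% in WT replicate 1 (36 cells) and 13.8% in WT replicate 2 (75 cells). The WT libraries differed from each other in several shares: sub-cluster 3 made up 20.1% in CD, 14.7% in WT replicate 1 and 23.8% in WT replicate 2, and sub-cluster 4 made up 19.2%, 24.5% and 15.5%. CD lay between the WT libraries for both. Since Otx2 and several leading genes differ between CD and WT, these shares are not a comparison of cell types.

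**Figure D3:**
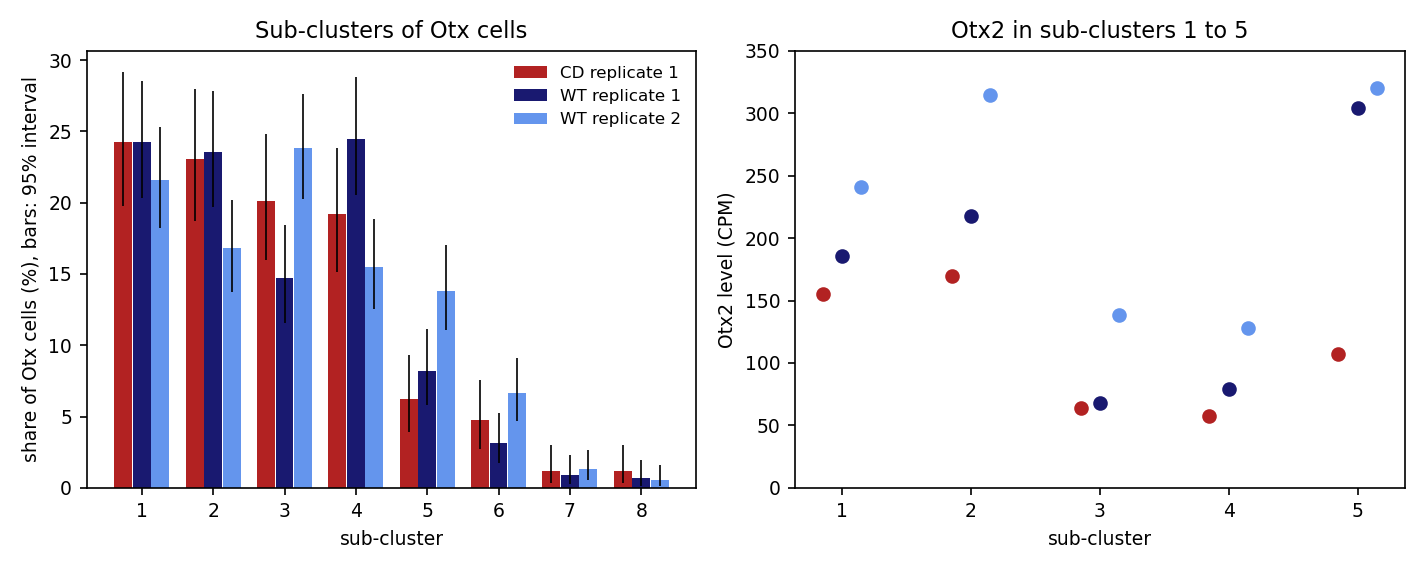
Left, share of Otx cells in each of the 8 sub-clusters by library, with 95% exact binomial intervals. Right, Otx2 level in CPM in sub-clusters 1 to 5, 1 point per library. The CD point is the lowest in each sub-cluster and the gap is widest in sub-cluster 5, at 107 against 304 and 320 CPM.

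The genes most like Otx2 over sub-clusters and libraries were ranked by Pearson's r of log2 levels over 18 points, which share libraries and cells. The points pool CD and WT and include sub-cluster 6, which neuron markers led. Thus r can reflect differences between libraries as well as between sub-clusters. They were Cndp2, a dipeptidase (r = 0.946), Sdf2l1 (0.854), Slc4a2 (0.852), Nnat (0.851) and Wnt4 (0.851). Six2 had r = 0.763, Gsc 0.667, Capn6 0.597 and Otx1 0.109. Of the 4 other markers Otx1 followed Otx2 least, and it ranged from 95.3 to 205 CPM over sub-clusters 1 to 5 of all libraries.

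In Otx cells, 36 of 14157 genes passed the threshold between CD and WT (adjusted p under 0.05, edgeR quasi-likelihood test), 18 higher and 18 lower in CD. That is 0.254% of the genes tested, and 0.127% in each direction. The genes that rose included ligands and regulators (Bmp4, Prrx2, Runx1t1, Igfbp5). Those that fell included genes of otoconial and acellular matrix (Oc90, Otogl) and of cartilage-type matrix (Cnmd, Col9a3). The largest fall was that of Fxyd3 (log2 fold change -4.14). The test has 1 residual degree of freedom, from the WT pair, and the lone CD library is assumed to vary like WT. The spread of each gene was largely borrowed from other genes, at a median of 12.2 prior degrees of freedom. The unadjusted p was under 0.05 for 777 genes, and 708 would be so with evenly spread p-values. Without sub-clusters 6 to 8, 99 genes passed (46 higher and 53 lower), of which 32 were shared with the 36, and with the stricter cell filter (at least 2000 genes, at most 5% mitochondrial UMIs) 1 gene passed, Cnmd.

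Otoconial and acellular matrix genes were mostly lower in CD. Of 12 listed genes 7 were tested, 3 fell and 1 rose, with a median log2 fold change of -1.04 beside 0.00 over all genes. Oc90, the main protein of the otoconial matrix, was at 60.8 CPM in CD, 572 in WT replicate 1 and 1216 in WT replicate 2, with a log2 fold change of -3.88 (SE 0.36, adjusted p = 0.000327). The WT libraries were about as far apart as a factor of 2, and the CD level was far below both. The log2 fold change was -4.33 without WT replicate 1 and -3.23 without WT replicate 2. Cnmd, the cartilage matrix glycoprotein chondromodulin, was at 55.2, 239 and 268 CPM (log2 fold change -2.20, SE 0.16, adjusted p = 6.94e-05), and passed in all 10 alternatives with a test. Otogl, a relative of otogelin in the acellular membranes of the inner ear, was at 6.98, 16.8 and 27.5 CPM (-1.66, SE 0.30, adjusted p = 0.0382), and passed in 6 of 10. The member that rose was Spp1, the secreted phosphoprotein osteopontin, at 163, 81.8 and 78.9 CPM (1.02, SE 0.14, adjusted p = 0.00666).

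Cartilage matrix genes and known SOX9-bound genes gave 2 falls among 13 tested of 18 listed, Cnmd and Col9a3, and no rise. The median was -0.24 and 10 of the 13 were negative. Col9a3, a chain of collagen IX, was at 31.6 CPM in CD against 81.0 and 102 in WT (log2 fold change -1.54, SE 0.19, adjusted p = 0.00310). Of the genes of ion transport in endolymph-forming epithelium, 10 of 16 were tested and 1 passed. Fxyd3, a regulator of the sodium-potassium pump, fell from 10.9 and 17.5 CPM in WT to 0.796 CPM in CD, which is 9 UMIs in 338 cells (-4.14, SE 0.44, adjusted p = 0.00102).

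Other genes that fell were scattered over functions. Bricd5, a BRICHOS-domain gene, was at 3.09 CPM in CD, 13.8 in WT replicate 1 and 20.1 in WT replicate 2 (log2 fold change -2.45, adjusted p = 0.00310). Sphk1, which makes sphingosine 1-phosphate, was at 6.36, 17.8 and 16.6 CPM (-1.43, adjusted p = 0.0200). Wnt7b, a Wnt ligand, was at 8.49, 20.6 and 23.1 CPM (-1.36, adjusted p = 0.0189), and Nell2 was at 6.01, 14.5 and 16.1 CPM (-1.35, adjusted p = 0.0391). Cuedc2 was at 203, 441 and 653 CPM (-1.43, adjusted p = 0.00666). Nnat, one of the genes higher in Otx cells than in other otic cells, was at 1014, 1624 and 2136 CPM (-0.89, SE 0.16, adjusted p = 0.0336). In each of these genes both WT libraries lay above CD, a direction that their choice favours, and Sphk1 differed least between the WT libraries. Bricd5 and Cuedc2 passed in 8 of 10 alternatives, Wnt7b in 6, Sphk1 in 5 and Nell2 in 4. With DESeq2 the adjusted p was 0.637 for Cuedc2, 0.0746 for Wnt7b, 0.149 for Sphk1 and 0.398 for Nell2.

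Genes that rose included a BMP ligand and regulators of transcription. Bmp4, a ligand that marks the future canal and sensory epithelium, was at 53.7 CPM in CD, 17.1 in WT replicate 1 and 22.1 in WT replicate 2 (log2 fold change 1.45, SE 0.18, adjusted p = 0.00310). Prrx2, a homeodomain factor of otic and mesenchymal cells, was at 87.4, 37.2 and 33.4 CPM (1.31, SE 0.16, adjusted p = 0.00286). Runx1t1, a transcriptional corepressor, was at 35.1, 12.6 and 13.9 CPM (1.40, SE 0.18, adjusted p = 0.00340). Igfbp5 was at 732, 317 and 356 CPM (1.12, SE 0.13, adjusted p = 0.00247). Fam20a, a pseudokinase that aids secreted-protein phosphorylation, was at 20.2, 3.82 and 6.56 CPM (1.97, SE 0.28, adjusted p = 0.00686). Nrp2 was at 25.4, 10.7 and 12.5 CPM (1.13, SE 0.20, adjusted p = 0.0336). Hs3st6, a heparan sulfate sulfotransferase, was at 39.2, 18.9 and 19.2 CPM, Nrep at 392, 180 and 219 CPM, and the zinc finger gene Tshz2 at 72.7, 35.3 and 42.0 CPM (log2 fold changes 1.04, 0.97 and 0.91, adjusted p = 0.0194, 0.0105 and 0.0444). Bmp4, Prrx2, Igfbp5, Spp1 and Nrep passed in 9 of 10 alternatives, and Nrp2 and Tshz2 in 3.

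**Figure D4:**
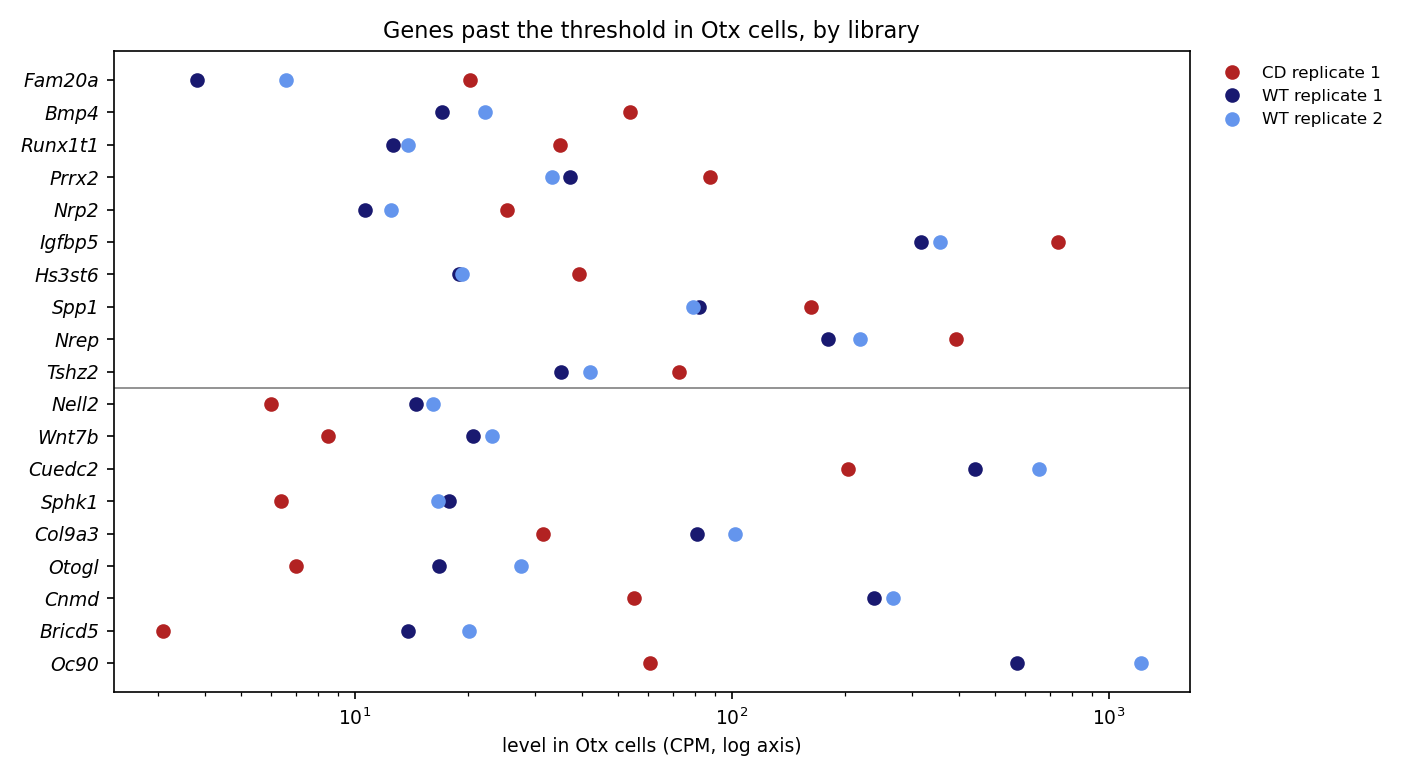
Level in Otx cells in CPM (log axis) of the 10 named genes that rose (above the line) and of 9 that fell (below it), 1 point per library. The CD point lies outside the WT pair for each gene, as the choice of these genes required. Oc90 has the widest gap, at 60.8 against 572 and 1216 CPM.

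Among the SOX genes, 13 of 15 were tested and Sox9 alone passed. Sox9 was at 784 CPM in CD, 491 in WT replicate 1 and 441 in WT replicate 2 (log2 fold change 0.75, SE 0.13, adjusted p = 0.0312), and lay above both WT libraries in all 5 sub-clusters. It passed in 7 of 10 alternatives. Sox10 was at 86.6, 122 and 134 CPM (-0.56, SE 0.15, adjusted p = 0.309) and had its lowest level in CD in each of the 5 sub-clusters. Sox8, the third SOXE gene, was at 3.18, 7.65 and 5.49 CPM (-1.05, SE 0.34, adjusted p = 0.505), and Sox2 at 83.4, 74.8 and 64.0 CPM (0.27, SE 0.16, adjusted p = 0.979). For scale, the CD level was the lowest of the 3 libraries in each of the 5 sub-clusters for 2.79% of 8591 genes with a mean of at least 10 CPM, and the highest for 4.23%. Among the 20 genes that head the CD comparison, all 10 that fell had their lowest level in CD in each of the 5, and 7 of the 10 that rose had their highest level in CD in each, directions that their choice favours.

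Gene lists of otic domains and signalling pathways held few genes past the threshold, beside a background of 0.254% over all genes. The canal morphogenesis list had 2 of 17 tested genes past it, Prrx2 and Bmp4, with a median log2 fold change of 0.45 and 15 positive. Bmp4 was also the sole gene past the threshold among 12 posterolateral domain genes (median 0.22), 14 dorsal domain genes (median 0.24), 17 Wnt/beta-catenin targets (median 0.26) and 24 BMP pathway genes (median 0.14). Of the 15 genes of the ventral prosensory and neurogenic domain, Tnfaip2 rose (15.0 CPM against 4.50 and 5.83, log2 fold change 1.54, adjusted p = 0.0219), 14 were positive and the median was 0.44. Of 10 medial domain genes none passed (median 0.10), with Lmo1 at -0.66 and Gata3 at 0.32. Of 10 Wnt ligands and R-spondins tested, Wnt7b fell and the median was 0.14. Of 9 Wnt antagonists none passed (median 0.22). Sfrp1 was at 339 CPM against 565 and 533 (-0.70, adjusted p = 0.0677).

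Of 21 FGF pathway genes none passed, 19 were positive and the median was 0.19. Fgf16 was at 3.01 CPM in CD against 0.370 and 0.469 (log2 fold change 2.82, adjusted p = 0.0939). Of 17 Notch pathway genes none passed (median 0.22), with Notch3 at 0.56 and Dll1 at 1.40. Dll1 was near the floor, at 3.41 CPM or below in sub-clusters 1 to 5 of each library. CD lay above both WT libraries for Dll1 in sub-clusters 1, 4 and 5, and below WT replicate 1 in sub-clusters 2 and 3. Of 17 semaphorin, neuropilin and plexin genes Nrp2 rose, 16 were positive and the median was 0.39. Of 20 ephrin, Slit-Robo and netrin genes none passed, 18 were positive and the median was 0.25, with Epha3 at 1.07 and Unc5b at 0.71. Hedgehog receptors and targets (12 tested, median 0.11), retinoic acid genes (15 tested, median -0.07), T-box, sine oculis, Eya and Dach genes (14 tested, median 0.22), and basement membrane and adhesion genes (21 tested, median 0.15) had no gene past the threshold. Gli3, Crabp1, Tbx3 and Lamb1 had the smallest p in these lists, at log2 fold changes of 0.53, 0.69, -0.41 and 0.42. Tbx3, a T-box repressor, passed with more markers required, at -0.98 with at least 4 (adjusted p = 0.0263) and -1.60 with all 5 (adjusted p = 9.05e-05). The Otx and bicoid-class homeobox list had 5 of 9 genes tested and none past the threshold. Pitx1, a bicoid-class factor, had 30 UMIs in CD (2.65 CPM) against 2 and 5 in WT (3.50, adjusted p = 0.0902). The list of otic epithelium markers had 15 tested genes, of which Sox9 rose and Oc90 fell (median 0.15). Of 5 tested cell markers of the rule none passed (median -0.09), a count that the rule shapes.

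Cell cycle and dissociation stress genes differed little. Of 20 cell cycle genes none passed and the median was 0.00, with Top2a at 560 CPM in CD and 519 and 463 in WT. Of 14 stress genes none passed and the median was 0.08, with Ier2 at 179, 248 and 210 CPM.

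Markers of other cell types were measured beside these results. Mesenchyme markers (13 genes without the 2 of the rule) summed to 182 CPM in CD and 84.3 and 102 in WT. The sum includes Prrx2, and 2 of 14 tested genes rose, Dcn and Prrx2. Dcn, decorin, was at 22.8 CPM against 2.04 and 4.69 (log2 fold change 2.77, adjusted p = 0.00278), with 22.1% of its CD UMIs in 1 cell. Endothelium markers summed to 66.7, 40.2 and 49.5 CPM, and to 19.0, 22.1 and 27.8 CPM without sub-clusters 6 to 8. Cldn5 and Kdr rose (9.81 against 2.34 and 3.01 CPM, and 10.7 against 3.76 and 2.28), with 67.6% and 61.2% of their CD UMIs in 1 cell, and passed in 1 of the alternatives each. Sst, a neuropeptide gene that fell outside the rule for named genes and was chosen after its values were seen, had 209 UMIs in CD against 6 and 20 in WT, and sub-cluster 6 held it at 307 CPM in CD.

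Red blood cell markers summed to 3562 CPM in CD, 4539 in WT replicate 1 and 8448 in WT replicate 2, and to 862, 440 and 564 CPM without sub-clusters 6 to 8. Of 12 tested none passed in Otx cells, and 11 were negative. The haemoglobin gene Hbb-bt was at -1.09 (adjusted p = 0.136), and without sub-clusters 6 to 8 it rose (log2 fold change 1.08, adjusted p = 0.0278). In other otic cells all 12 were positive and Hbb-bt rose (1.12, adjusted p = 0.0170). Neuron markers summed to 364, 171 and 378 CPM, and to 225, 132 and 170 without those sub-clusters, with none of 14 past the threshold (median 0.33). Neural crest and glia markers summed to 284, 337 and 367 CPM, and 1 of 12 tested fell (median -0.38). Macrophage markers summed to 2.46, 5.85 and 34.6 CPM, neural tube markers to 105, 81.0 and 71.3 CPM, and surface ectoderm markers to 792, 751 and 816 CPM, with none past the threshold in any of the 3 lists. Their part in the gene results was not tested beyond the comparison without sub-clusters 6 to 8, in which Cnmd, Oc90, Bmp4, Prrx2, Igfbp5 and Sox9 passed with adjusted p of 2.51e-09, 2.51e-09, 2.89e-05, 1.46e-05, 6.44e-06 and 0.00154.

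The CD effect was then compared between Otx cells and other otic cells, with the library as a block. That fit had 1 residual degree of freedom and a median of 29.4 prior ones, so its SE and p-values too rest largely on other genes. In other otic cells 25 of 16608 genes passed (0.151%), 6 higher (0.0361%) and 19 lower (0.114%). The difference itself passed for 127 of 16176 genes (0.785%), 70 more positive in Otx cells (0.433%) and 57 more negative (0.352%). DESeq2 called 12, all among the 127. Of 27 genes reported here whose difference passed, 5 passed with DESeq2 (Prrx2, Spp1, Oc90, Mt1 and Dcn), while its adjusted p was 0.289 for Bmp4, 1.00 for Igfbp5 and 0.714 for Cnmd. Several of the rises were larger in Otx cells. The difference in log2 fold change was 0.86 for Bmp4 (SE 0.10, adjusted p = 1.50e-06), 0.96 for Prrx2 (SE 0.09, adjusted p = 1.23e-08), 0.74 for Spp1 (SE 0.08, adjusted p = 1.38e-07) and 0.59 for Igfbp5 (SE 0.07, adjusted p = 4.17e-07). In other otic cells Bmp4 was at 67.6 CPM in CD against 41.8 and 47.8, and Prrx2 at 54.1 CPM against 43.8 and 41.4, so both were above the WT pair there too without passing (adjusted p = 0.361 and 1.00).

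The matrix genes Cnmd and Oc90 fell in both cell groups. In other otic cells Otogl (log2 fold change -2.07) and Col9a3 (-1.18) did not pass, each with an adjusted p of 0.0658, and Spp1 was at 0.28. Cnmd was at 7.92 CPM in other otic cells of CD, against 47.5 and 61.6 in WT (log2 fold change -2.79, adjusted p = 0.00122), a larger fall than in Otx cells by 0.58 (SE 0.10, adjusted p = 0.00185). Oc90 was at 87.5 CPM against 533 and 1022 (-3.15, adjusted p = 0.00633), and its fall was larger in Otx cells, by -0.71 (SE 0.07, adjusted p = 1.64e-08). Sox9 was at 657 CPM in other otic cells of CD against 395 and 325 (0.87, adjusted p = 0.0774), and its effect did not differ past the threshold between the groups (-0.12, SE 0.05, adjusted p = 0.492). Sox10 differed by 0.29 (SE 0.07, adjusted p = 0.0542).

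Wnt4 had the most negative difference of the 5 genes named for one. It was at 17.0 CPM in Otx cells of CD, 32.2 in WT replicate 1 and 86.9 in WT replicate 2, and at 11.1, 7.60 and 12.1 CPM in other otic cells. Within Otx cells the change did not pass (log2 fold change -1.81, SE 0.43, adjusted p = 0.162), and the WT libraries were farther apart than CD and WT replicate 1. The difference between the groups was -1.93 (SE 0.19, adjusted p = 4.19e-08), -2.23 without WT replicate 1 and -1.49 without WT replicate 2. DESeq2 gave -1.87 with an adjusted p of 1.00, so the call was lost there, and it passed in the other 9 alternatives with a test. Wnt4 was lowest in CD in each of the 5 sub-clusters, with 34.98 CPM in CD against 90.7 and 206 in sub-cluster 5, which it leads. Rspo2, a secreted enhancer of Wnt signalling, was at 18.1 CPM in Otx cells of CD against 28.1 and 39.0 (-0.89, adjusted p = 0.199), and its difference was -1.35 (SE 0.21, adjusted p = 0.000263) from 2.50 CPM or less in other otic cells. With DESeq2 the adjusted p for Rspo2 was 0.498. The difference for Rspo2 turned to 0.45 after thinning and to 0.11 in cells with all 5 markers.

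**Figure D5:**
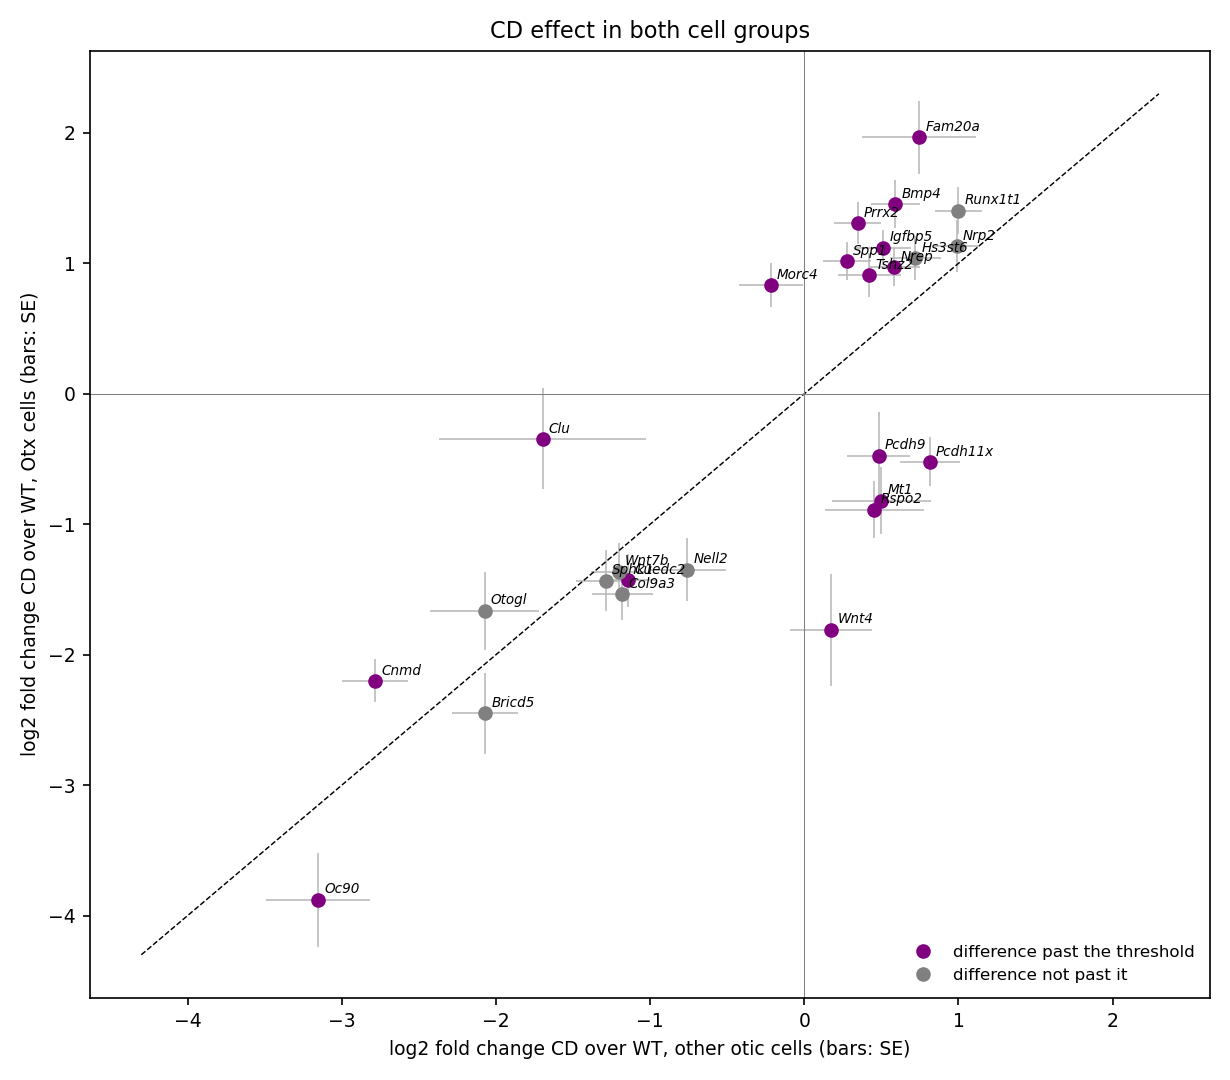
Log2 fold change, CD over WT, in other otic cells (x axis) and in Otx cells (y axis) for the named genes, with SE on both axes and a dashed line of equal effect. Bmp4, Prrx2 and Spp1 lie above the line on the right, Wnt4 and Rspo2 lie below it, and Oc90 and Cnmd are low on both axes.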

How the data were processed

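The matrices that the authors deposited hold raw UMI counts, 1 whole number for each of 32285 features in each barcode, from droplet-based 3' libraries. The submitters' processing notes name Cell Ranger 6.0 and build mm39, and version 6.0.0 stands in the file headers. The expression files hold no coordinates. Membership followed the rule in the report. The members and the 34 gene lists were chosen with earlier results of these data known. Called doublets (Scrublet in scanpy 1.11.5, expected rate 5%, 3.28%, 2.83% and 3.87% of kept barcodes in CD, WT replicate 1 and WT replicate 2) were kept in the main sums and left out in an alternative.

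UMI counts were summed per library and cell group, since cells are not replicates, and tested with edgeR 4.0.16 in R 4.3.3 (TMM scaling, filterByExpr, quasi-likelihood test, Benjamini-Hochberg adjustment, threshold 0.05). The difference between cell groups was an interaction term with the library as a block. Log2 ratios between Otx cells and other otic cells use a prior count of 1. Sub-clusters are Leiden clusters (leidenalg 0.10.2, 2000 variable genes, 20 components, 15 neighbours, resolution 0.5). The fitting script was tested on simulated counts.

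Named are the genes of the membership rule, 4 SOX genes, up to 10 genes past the threshold each way whose mean reached 10 CPM and whose change exceeded the WT gap, up to 5 each way for the interaction, the 12 highest and 8 lowest ratios to other otic cells, the 5 genes most like Otx2, and from each list as many as 4 called members or, with none, the 2 of lowest p. Predicted, mitochondrial, ribosomal protein, haemoglobin and sex-linked marker genes were passed over. Alternatives were DESeq2 1.42.0, RLE scaling, no gene filter, other marker limits, a stricter cell filter, doublets left out, thinning to 5000 UMIs with equal cells, and each WT library left out. Leaving out sub-clusters 6 to 8 and requiring all 5 markers were alternatives chosen after seeing the data. Some genes that the rule names were fitted and counted with the rest and are not reported here.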

Additional observations from a re-analysis of the deposited data

Results flagged for a closer look

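Each value here is the log2 fold change of CD over WT in Otx cells minus that in other otic cells, for a named gene at which the edgeR interaction test passed. No explanation was tested. Among genes that rose in Otx cells, the difference was 1.19 for Fam20a, 0.86 for Bmp4, 0.96 for Prrx2, 0.59 for Igfbp5, 0.74 for Spp1, 0.38 for Nrep, 0.47 for Tshz2, 1.24 for Tnfaip2, 1.97 for Dcn, 2.42 for Cldn5 and 2.20 for Kdr. Among genes that fell in Otx cells it was -0.71 for Oc90, 0.58 for Cnmd, -0.27 for Cuedc2 and -1.70 for Fxyd3. Cnmd was thus the 1 falling gene of these 4 whose fall was smaller in Otx cells.

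Among genes that passed in neither direction in Otx cells, the difference was 1.24 for Clu, 1.05 for Morc4, 0.36 for Gata3, 4.74 for Pitx1, 0.31 for Sfrp1 and 0.38 for Nes. It was -1.93 for Wnt4, -1.35 for Mt1, -1.35 for Rspo2, -1.34 for Pcdh11x, -0.94 for Pcdh9 and -2.33 for Fcer1g. Pitx1 and Fcer1g rest on 30 and 6 UMIs in the CD Otx cells. Clu lay at 13.5 CPM in WT replicate 1 and 35.4 in WT replicate 2 in Otx cells, with CD between them at 19.2. In other otic cells Clu was at 6.20 CPM in CD, 6.73 in WT replicate 1 and 33.5 in WT replicate 2. Its difference was 1.55 without WT replicate 1 and 0.61 without WT replicate 2. Sfrp1 fell past the threshold in other otic cells, so its positive difference marks a larger fall there and not a rise in Otx cells. Mt1 led sub-cluster 7, which red blood cell markers also led, and 29.6% of its CD UMIs in Otx cells came from 1 cell.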

How the results depend on the processing

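No paired analysis was run, since the labels name no pairing of CD and WT libraries. The count of 36 genes in Otx cells became 21 with RLE scaling, 157 with no gene filter, 58 with at least 4 markers, 1 with the stricter cell filter, 20 after thinning, 99 without sub-clusters 6 to 8 and 68 with all 5 markers. It was 28 with DESeq2, 29 without doublet calls and 28 with at least 2 markers. In other otic cells the 25 became 48 with DESeq2, 65 with no gene filter, 51 without doublet calls, 43 with the stricter cell filter and 55 after thinning. The 127 differences became 12 with DESeq2, 211 with no gene filter, 33 without doublet calls, 80 with at least 2 markers, 14 after thinning and 34 with all 5 markers. The causes were not tested.

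In cells chosen by the other markers, Otx2 was at -0.71 with at least 3 of them and -1.03 without doublet calls, past the threshold in neither, and Six2 turned to 0.015 with at least 3. Leaving out a WT library gave -1.24 to -0.80 for Otx2, 0.26 to 0.34 for Otx1, -0.79 to -0.37 for Gsc, 0.22 to 0.60 for Capn6 and -0.28 to -0.11 for Six2, as values with no test. The share of Otx cells, CD minus the WT mean, was -3.69 percentage points, -0.99 with at least 2 markers, -1.69 after thinning, and -5.04 to -2.34 with a WT library left out.

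Among named genes outside the membership rule, values that changed sign in Otx cells in an alternative with a test were as follows, none past the threshold in the main comparison but Cldn5 and Kdr. After thinning, Sox2 was at -0.56, Pcdh9 at 0.12 and Etv1 at -0.28. Without doublet calls, Mt1 was at 1.11, Cldn5 at -0.20 and Hbb-bt at 1.88. Without sub-clusters 6 to 8, Mt1 was at 0.38, Hbb-bt at 1.08 (past the threshold) and Tyrobp at 1.13. With all 5 markers, Crabp1 was at -0.021, Cldn5 at -2.15 and Kdr at -1.59. Crabp1 was at -0.26 with at least 4 markers, and with at least 2, Dmbx1 was at -0.14 and Hbb-bt at 0.043. The difference between cell groups turned to 0.85 for Mt1 without doublet calls, and to 0.45 after thinning and 0.11 with all 5 markers for Rspo2. With 1 CD library and 1 residual degree of freedom, spread among CD vesicle pools is unknown.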
